A study of Mus musculus with 6 samples.

Results

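The nuclear factor I (NFI) family of the mouse comprises the 4 genes Nfia, Nfib, Nfic and Nfix, and all 4 were found by symbol among the 22001 genes of the count table. They were measured by RNA-seq in neocortical cells of mouse embryos that carried an electroporated plasmid. Electroporation in utero, in which current pulses drive injected DNA into the cells lining the ventricle, was done at E13.5, and the tissue was dissected at E14.5, 24 h later. The control group received a plasmid encoding the red fluorescent protein mCherry alone (3 libraries), and the Insm1 group a plasmid encoding Insm1, a zinc-finger factor of newborn neurons and their progenitors, together with mCherry (3 libraries). In both groups mCherry-positive cells were collected by fluorescence-activated sorting, so the samples hold electroporated cells and their progeny. The sources used here give neither the mouse strain nor the promoter that drives the plasmids. The labels number the libraries but tie them to no litter, so a p-value below speaks only of the scatter among the 6 libraries, part of which may be technical.

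NFI proteins bind DNA as dimers through a conserved domain at the amino terminus and recognise the palindrome made of a TTGGC arm, a short spacer of any bases and the reverse arm GCCAA, each partner contacting one arm. In the developing cortex Nfia, Nfib and Nfix are present in radial glia, the progenitors that span the cortical wall, and in postmitotic neurons, deep-layer neurons among them. Mice that lack one of these factors keep progenitors for longer and make glia late, and NFIA acts downstream of SOX9 when progenitors turn from making neurons to making astrocytes. The study, by its title, concerns the detachment of progenitors from the ventricular surface under Insm1 and the junction protein Plekha7, and the comparison asks here whether NFI transcripts differed as well.

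Library totals lay between 30017645 and 31645135 counts. Of 13560 genes with enough counts to test, 167 were called higher and 287 lower in the Insm1 libraries by edgeR's quasi-likelihood test at a Benjamini-Hochberg adjusted p below 0.05, or 3.35% in all, and the deposited TPM values gave 14 higher and 46 lower with limma on log2(TPM + 1). Insm1 itself was at 222 to 371 CPM (counts scaled to library size with TMM factors) in the controls and at 1436 to 2173 CPM in the Insm1 libraries, where plasmid and chromosomal transcripts are counted together, a rise of 5.61-fold (adjusted p = 0.0122). Plekha7 was at 13.4 to 15.7 and 6.90 to 10.2 CPM (log2 fold change -0.82, adjusted p = 0.0495), a call lost in 10 of 17 alternative fits, with adjusted p-values up to 0.164. Summed markers of projection neurons (8 genes, 4 called higher) were at 7093 to 7335 CPM in the controls and 8252 to 8936 CPM with Insm1, and those of apical progenitors (8 genes, 4 called lower) at 2862 to 3409 and 2221 to 2676 CPM, and those of basal progenitors (6 genes, 2 called higher) at 1577 to 1652 and 1631 to 1867 CPM. In bulk RNA of sorted cells, fewer cells of a type and less RNA per cell cannot be told apart. None of the 6 endothelial markers had enough counts to be tested, oligodendrocyte precursor markers summed to at most 1.78 CPM, and hemoglobin and other erythroid genes summed to 5494 CPM in control 2 against 754 and 325 CPM in controls 1 and 3 and 3797 to 5149 CPM in the Insm1 libraries.

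On GRCm38 the annotation used here, GENCODE M21, places Nfia (ENSMUSG00000028565) at chromosome 4, 97772734 to 98118874, on the plus strand, and Nfib (ENSMUSG00000008575) on the same chromosome at 82290173 to 82705750, on the minus strand. Nfic (ENSMUSG00000055053) lies on chromosome 10 at 81396186 to 81455635 and Nfix (ENSMUSG00000001911) on chromosome 8 at 84699876 to 84800344, both on the minus strand. All 4 are protein-coding genes with long introns. The span of Nfia is 346141 bases for 10891 bases of exon, that of Nfib 415578 for 14957, that of Nfix 100469 for 7351 and that of Nfic 59450 for 6630.

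The 4 genes are paralogs, and the coding stretch below, which codes for part of the DNA-binding region, is shown because it is where Nfic and Nfix, the pair with the fewest mismatches, come closest to each other at the length of 1 sequencing read. For Nfia and Nfib it is the window that best matches this stretch of Nfix, and other windows bring them closer to the other members. It was read from the longest coding sequence of each gene in GENCODE M21 (coding bases 56 to 130 in Nfix, 80 to 154 in Nfia, 83 to 157 in Nfib and 149 to 223 in Nfic), and capitals mark bases that differ from Nfix.
Nfix: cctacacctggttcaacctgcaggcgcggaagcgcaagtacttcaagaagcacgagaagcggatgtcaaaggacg
Nfia: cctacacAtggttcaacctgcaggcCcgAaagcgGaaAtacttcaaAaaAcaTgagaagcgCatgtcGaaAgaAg
Nfib: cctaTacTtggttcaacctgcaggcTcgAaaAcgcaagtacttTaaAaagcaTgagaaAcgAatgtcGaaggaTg
Nfic: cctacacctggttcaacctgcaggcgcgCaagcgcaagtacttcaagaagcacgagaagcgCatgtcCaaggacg
In this window of 75 bases Nfic differed from Nfix at 3 positions, and Nfia and Nfib each at 12. No word of 75 bases was shared by any pair of members over all their annotated transcripts. The fewest mismatches between any 75-base windows of coding transcripts were 3 for Nfic and Nfix, 8 for Nfia and Nfic and for Nfib and Nfic, and 10 to 12 for the other pairs. Over the aligned coding sequences the pairs were 70.8% to 74.9% identical, with Nfic and Nfix the most alike. Reads of Nfic and Nfix come closest to each other by this measure, and the sources used here do not give how reads with several matches were counted.

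Per kb of exon, Nfib was the most abundant member, then Nfia, then Nfix, with Nfic far below. Levels between genes were compared as CPM per kb of exon, which takes the counts to come from exons. The sources used here do not say whether reads in introns were counted. Nfib was at 192, 180 and 200 CPM per kb in controls 1, 2 and 3 and at 192, 223 and 212 CPM per kb in Insm1 libraries 1, 2 and 3. On the same scale Nfia was at 118, 105 and 117 in the controls and 114, 113 and 104 with Insm1, and Nfix at 82.4, 57.2 and 71.6 in the controls and 73.8, 92.6 and 72.1 with Insm1. Nfic was at 5.35 to 5.94 CPM per kb over all 6 libraries. The libraries of neighbouring members in this order do not overlap, and the order was the same in 6 of 6 libraries, also per kb of the longest transcript.

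Among 13455 tested genes with an exon length, Nfib ranked 162nd by CPM per kb, Nfia 347th and Nfix 623rd, so these 3 lay above 98.8%, 97.4% and 95.4% of the genes. Nfic, at a mean of 5.66 CPM per kb, lay near the median gene (5.81 CPM per kb) and above 49.3% of genes. Of the family's summed CPM per kb in the controls, Nfib made up 50.2% ± 1.88 (SD, n = 3), Nfia 29.9% ± 0.358 (SD, n = 3), Nfix 18.4% ± 2.15 (SD, n = 3) and Nfic 1.5% ± 0.0395 (SD, n = 3). In the Insm1 libraries Nfib made up 51.6% ± 2.02 (SD, n = 3), Nfia 27.4% ± 1.95 (SD, n = 3), Nfix 19.6% ± 1.55 (SD, n = 3) and Nfic 1.39% ± 0.12 (SD, n = 3). By this measure the family's transcripts were mostly those of Nfib and Nfia in both groups.

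The deposited TPM values give another order, with Nfix above Nfia. In TPM, Nfib was at 56.8 to 68.6, Nfix at 36.6 to 57.9, Nfia at 28.0 to 33.5 and Nfic at 5.21 to 6.05 over the 6 libraries, and Nfix lay above Nfia in 6 of 6. The ranges of Nfib and Nfix overlap on this scale, although Nfib was the higher of the pair within each library. By TPM Nfib ranked 2033rd of 13462 tested genes, Nfix 2525th, Nfia 3508th and Nfic 7933rd. The length behind a TPM value can be read from the ratio of count to TPM, which within a library is proportional to it. For 6125 of 6425 well-counted genes (95.3%) this length equalled, within 1%, the whole span of the gene with its introns, and for 57 genes (0.9%) the summed exons. Span over exon length is 31.8 for Nfia, 27.8 for Nfib, 13.7 for Nfix and 9.0 for Nfic, so the deposited TPM lowers Nfia more than Nfix. The plot of levels under both lengths shows Nfia and Nfix changing places. Which order holds for the transcripts was not tested, since it depends on whether reads in introns were counted. A constant length cancels when the CPM per kb of 1 gene are compared between libraries. In TPM the lengths of all genes also enter the total to which each library is scaled. The mean with Insm1 over that of the controls was 1.095 in CPM and 1.046 in TPM for Nfib, and 0.974 and 0.93 for Nfia.

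**Figure D1:**
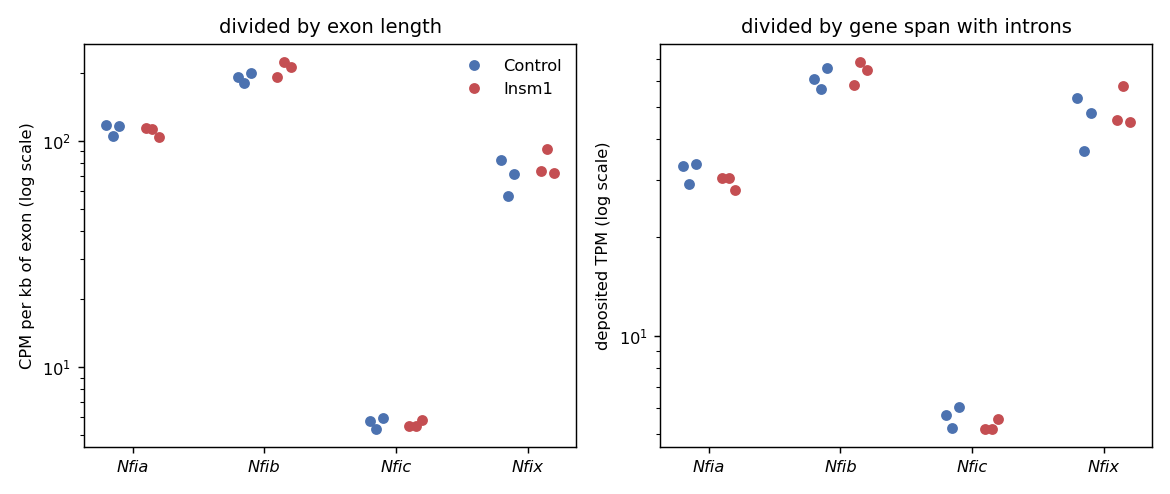
Level of each NFI gene in 3 control (blue) and 3 Insm1 (red) libraries, as CPM per kb of exon (left) and as deposited TPM, whose length is the gene span with introns (right), both on log axes. Each point is 1 library. Nfia lies above Nfix on the left and below it on the right, and Nfib leads and Nfic trails on both.

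None of the 4 NFI genes was called different between the groups. Of all 13560 tested genes 3.35% were called (1.23% higher and 2.12% lower). An unadjusted edgeR p below 0.05 was found for 2339 of them, no NFI gene among these. The control and Insm1 libraries overlapped for each of the 4, and they did not overlap for 22.2% of all tested genes. With only 4 genes, a count of 0 cannot be told apart from these shares. None of the 4 was called under any of 17 alternative fits, DESeq2 and limma among them. The plot of members by library shows the overlap.

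**Figure D2:**
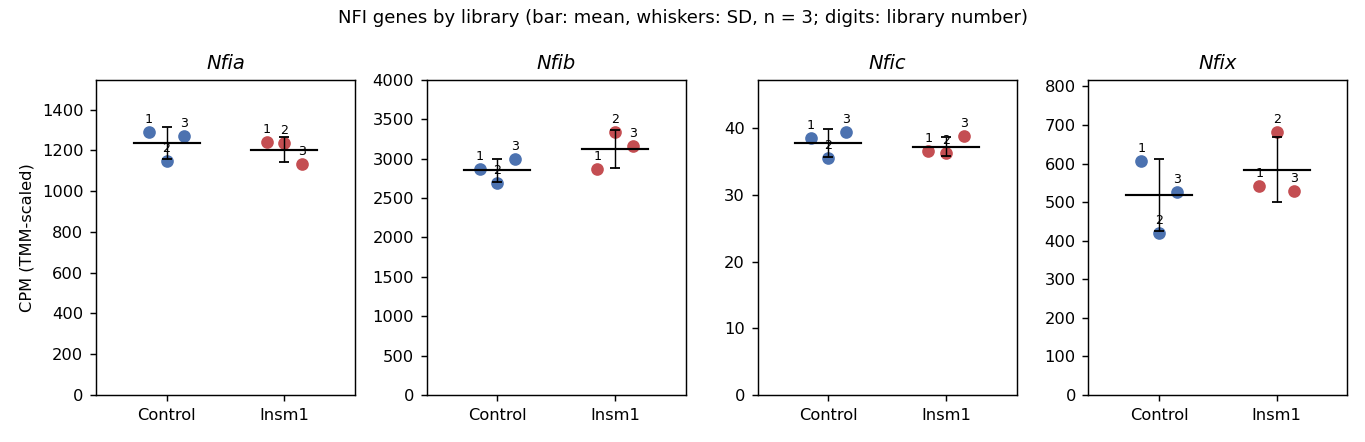
TMM-scaled CPM of each NFI gene in control (blue) and Insm1 (red) libraries, with library numbers beside the points, the mean as a bar and the SD as whiskers (n = 3). Axes start at 0. The groups overlap in every panel, and control 2 is the lowest control in all 4.

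Nfia, whose product is the family member best known for switching progenitors to astrocyte production, had 39816, 35379 and 38937 counts in controls 1, 2 and 3, against 38423, 38108 and 35090 counts for Insm1 libraries 1, 2 and 3. In CPM this was 1289, 1148 and 1271 against 1242, 1235 and 1134, so that control 2 and Insm1 library 3 were low and the groups interleaved. The fitted log2 change, Insm1 minus control, was -0.04 (SE 0.06) with a 95% interval from -0.175 to 0.099 (edgeR adjusted p = 0.831), which in fold terms runs from 0.886 to 1.07. An exact permutation test, two-sided, on its log2 CPM returned p = 0.5, and the smallest p that 3 libraries against 3 allow is 0.1.

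Nfib, needed for the maturation of cortical radial glia and of deep-layer neurons, had 88519, 83099 and 91651 counts in the controls and 88598, 102949 and 98002 with Insm1. In CPM this was 2866, 2697 and 2991 against 2864, 3337 and 3168. Insm1 libraries 2 and 3 lay above every control and Insm1 library 1 among them. Its log2 fold change was 0.13 (SE 0.06) with a 95% interval from -0.01 to 0.272 (edgeR adjusted p = 0.331, unadjusted 0.0649), or from 0.993-fold to 1.21-fold, and the exact permutation test gave p = 0.3. Of the 4 members Nfib came nearest to the threshold, at rank 2653 of 13560 genes by p.

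Nfix, which limits the number of progenitors in the developing forebrain, was the most variable member. Its counts were 18718, 12954 and 16132 in controls 1, 2 and 3 against 16778, 21011 and 16388 in the Insm1 libraries. Scaled to CPM, controls 1, 2 and 3 stood at 606, 420 and 527, and Insm1 libraries 1, 2 and 3 at 542, 681 and 530. The lowest value was that of control 2 and the highest that of Insm1 library 2, with the other 4 libraries between 527 and 606. Its coefficient of variation was 17.99% in the controls and 14.4% with Insm1, against 3.78% to 7.68% for the other members. The fit gave a log2 fold change of 0.175 (SE 0.14) with a 95% interval from -0.146 to 0.496 (edgeR adjusted p = 0.613), or from 0.904-fold to 1.41-fold, and the exact permutation test gave p = 0.4. A rise of Nfix by up to 1.41-fold is therefore inside what these libraries allow. Without control 2 the log2 fold change was 0.047, without Insm1 library 2 it was 0.051 and without control 1 it was 0.311.

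Nfic, known mainly for its part in tooth root formation, had 1189, 1093 and 1207 counts in the controls and 1132, 1119 and 1202 with Insm1. In CPM this was 38.5, 35.5 and 39.4 against 36.6, 36.3 and 38.9, and all Insm1 libraries lay within the range of the controls. Here the log2 fold change was -0.02 (SE 0.1) with a 95% interval from -0.234 to 0.191 (edgeR adjusted p = 0.95), or from 0.851-fold to 1.14-fold. The exact permutation test gave p = 0.9. Nfic shares 72 bases of exon with Gm16104, an antisense gene that was not counted here.

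Control 2 was the lowest control for each of the 4 genes, and summed over the family, controls 1, 2 and 3 had 4799, 4301 and 4828 CPM and the Insm1 libraries, in the same order of number, 4684, 5289 and 4870 CPM. Control 2 is also the control with the highest summed erythroid genes (above) and microglial genes (61.3 CPM against 1.10 and 7.51) and the lowest Cajal-Retzius genes (34.3 CPM against 135 and 130). In the Insm1 libraries the microglial genes summed to 8.99 to 31.3 CPM and the Cajal-Retzius genes to 51.4, 40.1 and 35.3 CPM, so that controls 1 and 3 stood above all other libraries in the latter (6 genes, none called). The part of these cell types in the NFI levels was not tested. With control 2 left out, the log2 fold changes of Nfia, Nfib, Nfic and Nfix were -0.086, 0.095, -0.062 and 0.047, and none was called. For all 4 genes a change of 2-fold lies outside the 95% interval in either direction. The intervals of Nfia, Nfib and Nfic, 0.274, 0.282 and 0.425 log2 units wide, were narrower than the median interval over all tested genes (0.608), and that of Nfix (0.642) was wider.

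Members were then compared with each other by the log2 ratio of their CPM within a library, over 6 pairs. The ratio of Nfib to Nfic was the one in which the groups did not overlap. It was 6.218, 6.248 and 6.247 in the controls and 6.29, 6.524 and 6.349 with Insm1, a difference of 0.15. The exact permutation p was 0.1, the smallest this design allows, and 0.6 after Benjamini-Hochberg adjustment over the 6 pairs. The ratio of Nfia to Nfib was -1.153, -1.232 and -1.235 in the controls and -1.205, -1.434 and -1.482 with Insm1, a difference of -0.167 (exact p = 0.3, adjusted 0.6). Nfia to Nfix differed by -0.219 and Nfic to Nfix by -0.202 between the groups, with exact p-values of 0.3 and 0.4 (adjusted 0.6 for both). No pair passed, and the design could not have let one pass at 0.05.

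**Figure D3:**
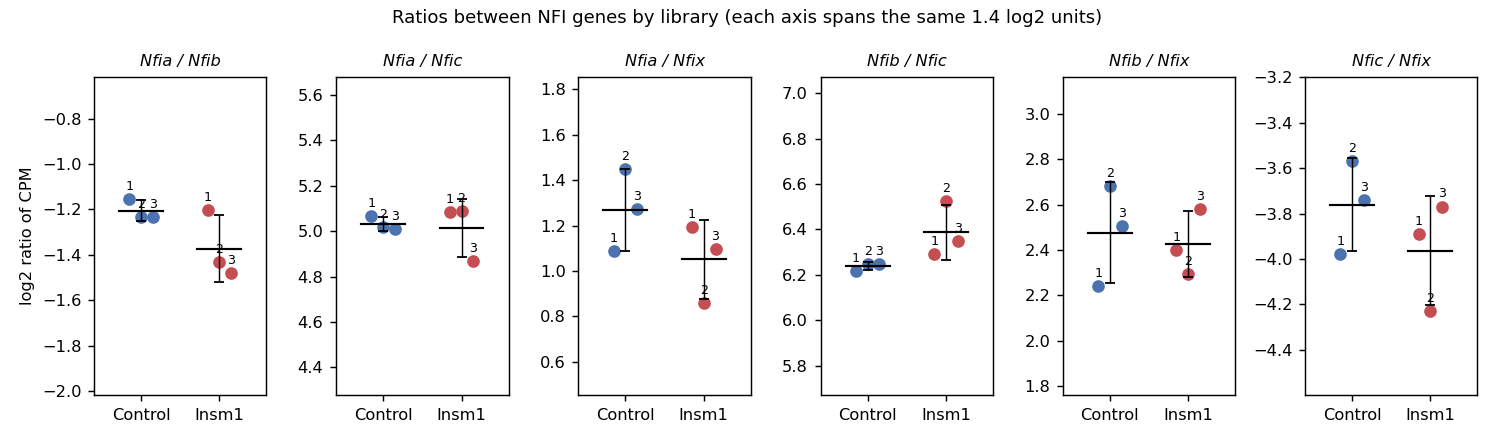
Log2 ratio of CPM for the 6 pairs of NFI genes in control (blue) and Insm1 (red) libraries, with library numbers, the mean as a bar and the SD as whiskers (n = 3). The axes do not start at 0 but span equal ranges. The groups are apart for Nfib / Nfic, by 0.15 on average, and overlap in the other 5 panels.

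By the shape of their values over the 6 libraries, the members were not each other's nearest genes. With so few members among 9893 candidates, this outcome was likely in advance. Likeness was the root mean square difference between gene-centred log2 CPM. Candidates had a mean of at least 5 CPM, no library at 0 counts, and a symbol other than a Gm number, a Rik name or an Ensembl identifier. The genes most like Nfia were Mlst8, Hnrnpc and Usp14 (0.017, 0.019 and 0.02), those most like Nfib were Pogk, Cryzl1 and Ccar2 (0.013, 0.022 and 0.026), and those most like Nfic were Pex13, Bag1 and Cebpzos (0.019, 0.02 and 0.021). For Nfix they were Rtn4rl2, Zfp667 and Fam98a, at the larger differences of 0.065, 0.073 and 0.075. The median gene was at 0.148 to 0.162 from Nfia, Nfib and Nfic and at 0.249 from Nfix. The nearest other member ranked 702nd for Nfia (Nfic, 0.076), 1519th for Nfib (Nfic, 0.103), 910th for Nfic (Nfia, 0.076) and 474th for Nfix (Nfib, 0.155). In each case it was nearer than the median gene. Genes that vary little lie close to each other on this scale.

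The count table holds 3 genes whose exons overlap a member, all on the opposite strand, and this kind of library does not mark strand, so reads from the shared bases cannot be told apart. E130114P18Rik is transcribed in the other direction from Nfia and shares 4 bases with it. It was at 53.7, 48.7 and 53.0 CPM in the controls and at 43.0, 39.0 and 31.0 CPM with Insm1, so the groups did not overlap. A log2 fold change of -0.46 (SE 0.12) did not pass (edgeR adjusted p = 0.0807), whereas DESeq2 called it lower (adjusted p = 0.0131), as did edgeR with genes under 5 CPM left out (0.0496). Over the alternatives its adjusted p ran from 0.0131 to 0.252. G430095P16Rik shares 137 of the 7351 exon bases of Nfix and was at 22.0, 14.2 and 15.9 CPM in the controls and 18.5, 23.2 and 17.3 CPM with Insm1, lowest in control 2 and highest in Insm1 library 2, as Nfix was. Lyl1 shares 4 bases with Nfix and was under 1 CPM, with at most 23 counts. By their whole spans, G430095P16Rik and Lyl1 lie inside Nfix, and E130114P18Rik overlaps the start of Nfia. If reads in introns were counted, which is not known here, the shared sequence is longer than these exon bases.

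Genes reported to be regulated by NFI factors in neural cells moved in part. Of 15 listed genes, chosen from general knowledge of the family, 13 were tested, 3 fell, none rose and 10 did not pass, which is 23.1% against 2.12% of all tested genes called lower. The median log2 fold change of the 13 was -0.12, against -0.01 over all tested genes. The list holds both genes that NFI factors activate and genes that they repress. Neither the count nor the median therefore gives a direction of NFI activity. Fabp7, the brain fatty acid-binding protein of radial glia, was at 252, 236 and 247 CPM in the controls and 134, 145 and 129 CPM with Insm1, a fall of 1.80-fold with a log2 fold change of -0.85 (SE 0.07, edgeR adjusted p = 0.00113). Slc1a3, the glutamate transporter of radial glia and astrocytes, was at 124, 146 and 133 against 67.7, 70.9 and 53.0 CPM, a fall of 2.10-fold (log2 -1.07, SE 0.11, adjusted p = 0.00386). Sox9, a factor of progenitors that acts upstream of Nfia and is itself restrained by NFI factors, was at 332, 285 and 292 against 223, 207 and 147 CPM, a fall of 1.57-fold (log2 -0.65, SE 0.14, adjusted p = 0.0393). For all 3 of these genes, which were named for their call, every Insm1 library lay below every control. The groups did not overlap for 22.2% of all tested genes. Fabp7 and Slc1a3 were called whichever library was left out, and Sox9 in 3 of those 6 fits, with adjusted p-values of 0.135, 0.122 and 0.0849 without control 1, control 3 and Insm1 library 2.

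The other tested genes of that list did not pass. Hes1, a Notch effector repressed by NFI factors in the hippocampus, was at 202 ± 43.0 CPM in the controls and 114 ± 26.4 CPM with Insm1 (SD, n = 3), groups that did not overlap (edgeR adjusted p = 0.0854). Ezh2, the Polycomb methyltransferase repressed by NFIB, was at 251 ± 2.61 and 268 ± 11.9 CPM (adjusted p = 0.466, SD over n = 3). Cdh2, Cntn2 and Efnb1, adhesion and guidance genes that NFI factors control in cerebellar granule neurons, had log2 fold changes of 0.02, 0.02 and 0.04. Mmd2, Zcchc24 and Apcdd1, which SOX9 and NFIA activate together in the spinal cord, had values of -0.12, -0.52 and 0.28, Bbx 0.05 and Insc -0.39, all without passing. Gfap, the intermediate filament of astrocytes and a long-known NFI target, had 0 counts in every library, as did the granule neuron gene Gabra6.

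The promoter of Fabp7 is printed because, of the NFI-regulated genes that fell, Fabp7 had the smallest adjusted p, and because its promoter holds a TTGGC. The window, from the RefSeq promoter table on GRCm38.p6, is chr10:57784673-57784972 on the plus strand, 300 bases that hold the start, and capitals mark TTGGC or its reverse GCCAA.
Fabp7: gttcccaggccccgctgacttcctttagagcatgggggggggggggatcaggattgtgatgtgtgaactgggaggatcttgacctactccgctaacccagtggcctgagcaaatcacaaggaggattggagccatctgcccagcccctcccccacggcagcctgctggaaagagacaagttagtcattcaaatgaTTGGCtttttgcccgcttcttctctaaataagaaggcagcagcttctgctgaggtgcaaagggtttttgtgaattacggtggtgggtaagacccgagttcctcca
The promoter of Slc1a3, the other gene that fell with a matched window, holds neither an arm nor a full site. That of Fabp7 holds 1 such arm and no full palindrome, searched as TTGGC, then 5 bases of any kind, then GCCAA. Both strands were searched in 32851 promoter windows of this length, which leave out 1 chromosome. Of these windows 12 (0.037%) held the full palindrome and 15344 (46.7%) at least 1 arm. Among them, promoters were matched by symbol for 10 of the 15 NFI-regulated genes, and 8 of the 10 held an arm and none the full site. A match of 5 letters is a description of the window and not a binding site.

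Regulators that bring about or oppose the switch to gliogenesis fell in part. Of 25 listed, 23 were tested, 7 fell (30.4%), none rose and 16 did not pass, against 2.12% of all tested genes called lower and 1.23% higher. Their median log2 fold change was -0.27, against -0.01 over all tested genes. Id4, an inhibitor of bHLH factors in radial glia, fell 2.29-fold, from 542, 530 and 522 to 256, 264 and 178 CPM (log2 -1.19, SE 0.13, edgeR adjusted p = 0.00525). Lifr and Il6st, the receptor chains through which LIF-type cytokines promote astrocyte fate, fell 2.47-fold and 1.76-fold, and Notch1 and Notch2, receptors that keep progenitors undifferentiated, 1.34-fold and 1.55-fold. Sox8, a relative of Sox9, fell 1.88-fold and Hmga2, a chromatin protein that favours neuron production, 1.93-fold (adjusted p = 0.0496). Zbtb20, a promoter of astrocyte production, stood at 260 ± 6.95 CPM in the controls against 215 ± 24.4 CPM (SD, n = 3; adjusted p = 0.104). Stat3, the effector of LIF signalling, stood at 46.7 ± 8.75 CPM against 56.3 ± 8.81 CPM (SD, n = 3; adjusted p = 0.432) and shares exon sequence with Stat5a. Of the 7, Id4 was called with each library left out, Sox8 in 3 of the 6 such fits, Il6st in 2 and Lifr, Notch1, Notch2 and Hmga2 in 1 each. Across these fits the list had 1 to 6 genes called, with 1 without Insm1 library 2 and 2 without control 1, control 3 or Insm1 library 3, and the fit with the replicate number as a block called 3.

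Astrocyte genes fell in part as well. All 16 listed genes were tested, 7 fell (43.8%), none rose and 9 did not pass, against 2.12% of all tested genes called lower. Their median log2 fold change was -0.62, against -0.01 over all tested genes, with 13 of 16 values below 0. Vim, the intermediate filament of radial glia, fell 1.44-fold from 773 ± 79.3 to 535 ± 48.9 CPM (SD, n = 3; edgeR adjusted p = 0.0116). Tnc, which encodes the matrix protein tenascin-C, fell 2.65-fold and Mlc1, a membrane protein of astrocyte endfeet, 2.04-fold. Aldoc, the brain aldolase, fell 1.80-fold, the chloride channel gene Ttyh1 1.73-fold and the gap junction gene Gja1 1.59-fold, while Ndrg2 fell by 0.58 on the log2 scale. Glul and Cst3, also abundant in astrocytes, were at 31.8 ± 3.84 and 31.8 ± 1.89 CPM and at 115 ± 9.18 and 116 ± 6.40 CPM (SD, n = 3 each), with adjusted p-values of 0.997 and 0.967, and Glul shares exon sequence with Teddm2. Vim, and Fabp7 and Slc1a3 of the NFI-regulated list, are also among the 8 apical progenitor markers. The sum of these markers was lower in every Insm1 library than in every control (above). That sum contains Vim, Fabp7 and Slc1a3, so it is not a measure apart from them. The part of progenitor share in the glial lists was not tested. Several of the astrocyte genes are radial glia genes at this age, and Aqp4 and S100b, which mark mature astrocytes, were under 2 CPM in both groups on average. Aqp4 went the other way from most of the list, from 0.486, 0.130 and 0.457 to 1.33, 1.59 and 0.873 CPM, groups that did not overlap (log2 fold change 1.81, 95% interval 0.489 to 3.128), and did not pass (adjusted p = 0.141). Ttyh1 was called with each library left out, Vim without every library except control 3 (adjusted p = 0.0615), and Mlc1 in none of these 6 fits. The list had 2 to 6 called genes across them, with 2 without control 3, 3 without control 1, Insm1 library 1 or Insm1 library 3, and 4 without Insm1 library 2.

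Genes of deep-layer and subplate neurons, in which NFI factors are also expressed, went both ways. Of 12 listed, 10 were tested, 1 rose, 1 fell and 8 did not pass, against 1.23% of all tested genes called higher and 2.12% lower. Their median log2 fold change was -0.23, against -0.01 over all tested genes. Bcl11b, a factor of subcerebral projection neurons, rose 1.19-fold, from 772, 841 and 830 to 1000, 962 and 956 CPM (log2 0.26, SE 0.05, edgeR adjusted p = 0.0307). Ldb2, a LIM-domain cofactor, fell 4.88-fold, from 15.1, 8.41 and 14.0 to 2.59, 1.43 and 3.65 CPM (adjusted p = 0.01). Like the summed Cajal-Retzius genes (above), Ldb2 was lowest in control 2 among the controls, as were Zfpm2 (26.8, 12.5 and 21.5 CPM in controls 1, 2 and 3) and Crym (4.01, 1.07 and 2.38 CPM), and the part of these cells in the values was not tested. Tbr1, the factor of early-born neurons, stood at 341 ± 25.6 CPM against 398 ± 5.64 CPM (SD, n = 3; adjusted p = 0.101), and Sox5 at 244 ± 28.6 against 207 ± 4.27 CPM (SD, n = 3; adjusted p = 0.164). Bcl11b and Tbr1 are also among the 8 projection neuron markers, whose sum was higher in every Insm1 library than in every control (above). The part of projection neuron share in these values was not tested. Ldb2 lost its call without control 3 (0.0546), and Bcl11b kept it only without control 2. This list had 0 to 5 genes called when single libraries were left out. None was called without control 3, 5 without control 2 and 1 without control 1, Insm1 library 2 or Insm1 library 3. DESeq2 called 2 higher and 4 lower.

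Set side by side, the 4 NFI genes had log2 fold changes between -0.04 and 0.175, and the 18 list genes called lower had values between -2.29 and -0.42. The plot of fold changes shows the 4 NFI intervals crossing 0. Whether the NFI genes changed less than these genes was not tested, since the 19 list genes plotted were picked by their call.

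**Figure D4:**
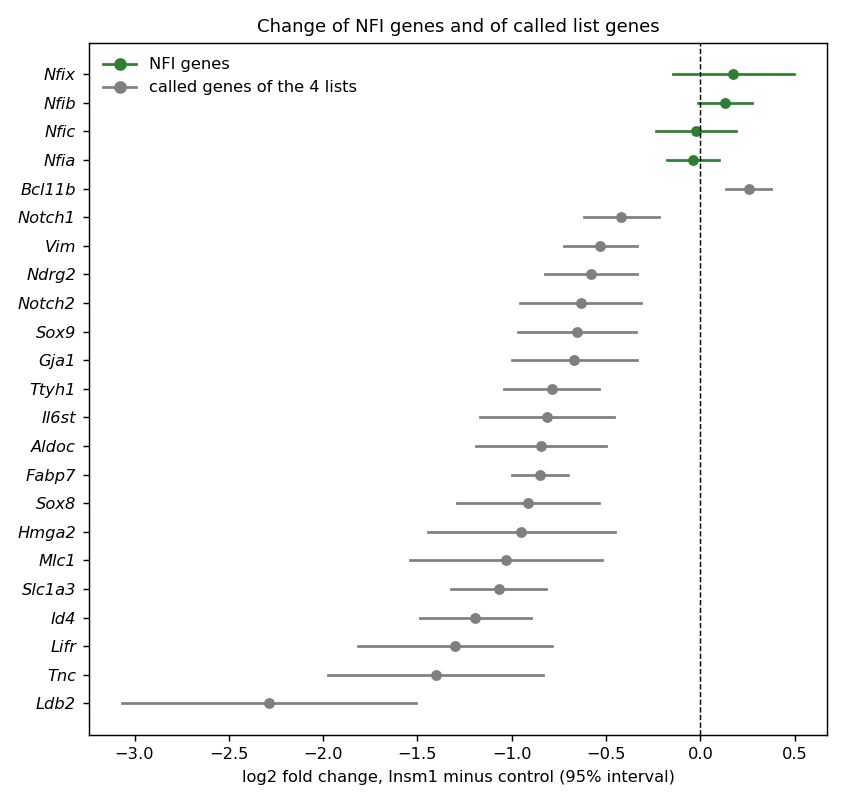
Log2 fold change (Insm1 minus control) with its 95% interval from the edgeR fit for the 4 NFI genes (green) and for the 19 genes of the 4 lists called at an adjusted p below 0.05 (grey), sorted within each set. The dashed line marks no change. All 4 NFI intervals include 0, and the grey genes were chosen by their call.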

How the data were processed

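RNA was measured in 3 control and 3 Insm1 libraries. Per the labels' protocols, cDNA was primed with tailed poly-dT, template-switched and amplified for 12 cycles, sheared, amplified for 15 more and read as single 75-base reads, without strand or molecular identifiers. Per the submitters' processing notes, TopHat2 2.0.13, Bowtie and bcl2fastq were used with GRCm38. For the counting program nothing is given in these sources. Deposited counts are whole numbers per Ensembl gene. The authors' TPM values fit those counts divided by the gene span. Of 449 protein-coding genes inside an intron of another gene, 170 have over 100 counts in a library (11066 of 20570 others).

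Genes passing filterByExpr were fitted to group by edgeR 4.0.16 (R 4.3.3; TMM, robust quasi-likelihood), with Benjamini-Hochberg adjustment over all of them and intervals from the F statistic. The fit was tested on simulated data, where it called 46.3% of changes of 1.5-fold, 68.7% of 2-fold and 83.3% of 4-fold, with 4 false calls. CPM use TMM factors, and ± marks the SD. Single values had exact permutation tests. Libraries of 1 group differed beyond sampling noise (chi-square over its degrees of freedom 12.43 to 31.05). That scatter may be technical in part and does not show that the libraries are separate biological samples. Each was counted as 1 sample. DESeq2 1.42.0 and limma 3.58.1 were alternatives, with other scalings, filters, a replicate block and each library left out.

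The members, lists, naming rule (every member, called list genes or else the 2 most abundant, the 3 genes nearest each member, overlapping genes) and tests were chosen with earlier results of these data known. Untested or uncalled list genes named besides were chosen after their values were seen. Exons come from GENCODE M21 and promoters from RefSeq. Protein sequences were not used here.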

Additional observations from a re-analysis of the deposited data

How the results depend on the processing

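No NFI gene was called under any of the 17 alternatives, where the lowest adjusted p was 0.128, for Nfib without Insm1 library 1. With single libraries left out the log2 fold changes ran from -0.086 to 0.004 for Nfia, from 0.082 to 0.191 for Nfib, from -0.062 to 0.014 for Nfic and from 0.047 to 0.311 for Nfix. The sign changed for Nfia without control 1 (0.002) or Insm1 library 3 (0.004) and for Nfic without control 1 (0.001) or control 3 (0.014). In the main fit these 2 genes stood at -0.038 (SE 0.062) and -0.021 (SE 0.095). Both estimates are smaller in size than their standard errors, so neither sign is resolved. The count of genes called over all genes was 1017 with DESeq2, 60 and 64 with limma on log2(TPM + 1) and log2(TPM + 0.1) (23.3% and 23.4% of them higher, against 36.8%), and 101 to 631 with single libraries left out (101 without control 3, 176 without Insm1 library 2, 196 without Insm1 library 3 and 221 without control 1). With limma on log2(TPM + 1) and log2(TPM + 0.1) the gliogenesis list had 1 and 1 called, the astrocyte list 0 and 1 and the deep-layer list 0 and 0. The deep-layer list had 1 called with library totals and 6 with DESeq2. Leaving out single libraries gave 1 to 6 called for the gliogenesis list, 2 to 6 for the astrocyte list, 0 to 5 for the deep-layer list and 2 to 4 for NFI-regulated genes. The count of NFI-regulated genes, 3 in the main fit, stayed within 1.5 times in all 17 alternatives. Sox9 lost its call in 6 of the 17, and Fabp7 and Slc1a3 in none. With the replicate number as a block, 331 genes were called, 3 of the gliogenesis list and 1 of the deep-layer list. Same-numbered libraries had correlated deviations of -0.08, -0.151 and -0.158, so no library correlated best with its own number, and the numbers were not taken as pairs. Nfic had the fewest counts of the family, 1093 to 1207 a library.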

Other observations

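Nfil3 encodes a basic leucine zipper repressor that shares part of its name with the NFI family but not its DNA-binding domain, and it was looked at after its values were seen. It was at 32.8, 28.0 and 42.5 CPM in the controls and 19.8, 19.9 and 20.0 CPM in the Insm1 libraries, a log2 fold change of -0.79 with a standard error of 0.15 (edgeR adjusted p = 0.0207). The call was kept without control 2 and lost without each other library, with adjusted p-values up to 0.0825.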
